A study of Mus musculus with 27 samples.

Results

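Mest, Sfrp5, Bmp3, Npr3 and Peg3 were taken as 5 genes said to follow the enlargement of fat pads in mice. Their transcripts were followed in epididymal white adipose tissue (eWAT) through a cycle of high-fat feeding, return to normal diet and renewed high-fat feeding. That description was not tested here, and not all 5 went with it. Peg3 was lower after 8 weeks of high-fat feeding (log2 fold change -0.64 ± 0.83, SE) and from 5 to 13 weeks of age, and Npr3 differed little after those 8 weeks (0.07 ± 0.51). The 5 genes were chosen by name among the 43460 gene names of the count table, and all 5 were among the 17821 genes that passed the filter on low counts. RNA-seq libraries came from C57BL/6N mice, 27 in all and 3 in each of 9 groups, and the high-fat diet (HFD) supplied 60% of its energy as fat. The 13-week-old mice had been on HFD for 8 weeks (gain8) or on normal diet (ND) for the same 8 weeks (control8). The 17-week-old mice had spent their last 4 weeks on ND after HFD (loss), or all 12 weeks on ND (control12). The 21-week-old mice formed 4 groups. Of these, regain was re-fed HFD for 4 weeks after that weight loss, maintenance was kept on ND for 8 weeks after HFD, gain4 received HFD for 4 weeks within a treatment period of 16 weeks, and control16 stayed on ND for 16 weeks. Mice of the initial group were 5 weeks old and had not begun any diet period. Body and pad weights were not used here, so that gain, loss and maintenance name diet histories. The labels number the libraries of a group but do not state that each is a separate animal, so that p-values measure the spread between these libraries.

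Fat pads enlarge by filling existing fat cells with triglyceride and by forming new ones from progenitors, and the 5 genes belong to pathways that act on these steps. Mest (mesoderm specific transcript) is an imprinted gene, expressed from the paternal allele, whose product is an enzyme-like protein of the endoplasmic reticulum, and its mRNA level in mouse fat is known to vary widely even between genetically identical animals. Sfrp5 encodes a secreted frizzled-related protein, a decoy that binds Wnt ligands outside the cell. Bmp3 encodes a member of the bone morphogenetic protein family that in bone acts against other BMPs. Npr3 encodes the natriuretic peptide clearance receptor, which removes peptides that drive lipolysis. Peg3 encodes a zinc finger protein and is, like Mest, imprinted and expressed from the paternal allele.

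In GRCm38 (GENCODE M21), Mest (ENSMUSG00000051855) lies at chr6:30723547-30748465 on the plus strand and Sfrp5 (ENSMUSG00000018822) at chr19:42197971-42202252 on the minus strand. Bmp3 (ENSMUSG00000029335) lies at chr5:98854415-98884396 on the plus strand. Npr3 (ENSMUSG00000022206) lies at chr15:11839896-11907287 and Peg3 (ENSMUSG00000002265) at chr7:6703892-6730431, both on the minus strand. The last exons of Mest share 912 bases with Copg2 on the opposite strand, and Npr3 shares 321 exonic bases with the antisense transcript Gm5144. The sources used here do not give the strand setting of the read counting, so that reads from these overlaps cannot be told apart and the Mest and Npr3 levels are uncertain to that extent. RefSeq start-site windows (GRCm38.p6, 250 bases before to 50 after the start) were matched for 4 of the 5 genes, Bmp3 being named only. The windows of Mest and Sfrp5 are shown because these transcripts deviated together within groups, and that of Peg3 because it is the other imprinted gene and took a different course. All are written 5′ to 3′ along the gene, at chr6:30737800-30738099 (plus strand) for Mest, chr19:42202203-42202502 (minus strand) for Sfrp5 and chr7:6730370-6730669 (minus strand) for Peg3. Capitals mark the reverse complement of TGCCGC, the core motif of the imprint-guarding zinc finger protein Zfp57.
Mest: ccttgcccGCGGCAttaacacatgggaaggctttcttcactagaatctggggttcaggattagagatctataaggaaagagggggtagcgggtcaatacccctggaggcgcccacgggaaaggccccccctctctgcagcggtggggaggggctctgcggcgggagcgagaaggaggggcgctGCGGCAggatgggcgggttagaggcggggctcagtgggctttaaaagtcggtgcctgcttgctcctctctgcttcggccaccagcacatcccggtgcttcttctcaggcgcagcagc
Sfrp5: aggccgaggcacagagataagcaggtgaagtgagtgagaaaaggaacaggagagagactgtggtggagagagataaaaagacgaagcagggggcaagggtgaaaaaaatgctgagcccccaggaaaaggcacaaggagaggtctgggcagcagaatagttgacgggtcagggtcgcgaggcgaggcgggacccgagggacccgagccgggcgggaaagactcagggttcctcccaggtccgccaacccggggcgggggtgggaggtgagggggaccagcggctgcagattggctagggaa
Peg3: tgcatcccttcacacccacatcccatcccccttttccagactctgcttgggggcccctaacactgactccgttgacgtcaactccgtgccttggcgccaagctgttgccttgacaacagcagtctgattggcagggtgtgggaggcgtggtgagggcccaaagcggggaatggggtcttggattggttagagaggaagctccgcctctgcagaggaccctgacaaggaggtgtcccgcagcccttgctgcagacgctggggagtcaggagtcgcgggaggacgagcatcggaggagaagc
The Mest window shown held TGCCGC at 2 places on the opposite strand, beginning at positions -242 and -67 from the start site, and 11.6% of 32851 RefSeq windows of the same length held it on either strand. RefSeq lists 2 further Mest windows, one shifted by 3 bases, with the same 2 matches, and one at chr6:30733256-30733555, with none and with 8 CG pairs. The Sfrp5 and Peg3 windows did not hold it. The Mest window shown had 17 CG pairs, the Sfrp5 window 15 and the Peg3 window 13, against a median of 7 over all windows. On either strand, none of these 3 windows contained AGGTCA (nuclear receptor site, in 16.3% of all windows), TATAAA (13.6%), CCATNTT (YY1 core, 16.1%) or CTTTGNT (TCF, 18.6%). The searched motifs did not overlap each other, and a match is a description of the sequence.

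The libraries held 26479773 to 32728594 counts each. All 12 adipocyte markers had counts in every group. Lars2, whose gene contains a stretch resembling ribosomal RNA, had 1325 to 4104 CPM (a TMM-scaled count relative to library size) in 15 libraries, against 97.5 to 212 CPM for the remaining 12, and every group but initial held both kinds. Within the 8 groups that held both, the mean of each of the 5 genes was lower in the high-Lars2 libraries in 6 groups, with a median difference, in log2 CPM, of -1.01 for Mest, -0.47 for Sfrp5, -0.98 for Bmp3, -0.23 for Npr3 and -1.06 for Peg3. Maintenance library 3 carried 8423 CPM of liver markers in sum, against 1018 and 1537 CPM in the other maintenance libraries. Loss library 1 carried 19356 CPM of macrophage markers, against 5762 and 6234 CPM in the other loss libraries. Control12 library 3 carried 169 CPM of epididymis, efferent duct and sperm markers, against 2.40 and 0.153 CPM in the other control12 libraries. These markers also reached 61.3 CPM in gain8 library 2, against 0.142 and 0.318 CPM in the other gain8 libraries. They stood at 23.9 to 75.7 CPM in control8, 14.0 to 90.2 CPM in maintenance and 16.2 CPM in control16 library 3.

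After 8 weeks of HFD, Sfrp5 and Bmp3 stood above, and Peg3 below, their levels in age-matched ND mice in every library, while the groups overlapped for Mest and Npr3. None of these differences passed the test. Sfrp5 measured 506, 455 and 469.7 CPM in gain8, against 156, 172 and 116 CPM in control8. The HFD libraries were closely alike and lay 3.22-fold above the ND libraries in the fit, a log2 fold change of 1.69 ± 0.95 (SE; adjusted p = 0.210, quasi-likelihood test in edgeR, Benjamini-Hochberg adjustment). Bmp3 measured 81.8, 72.9 and 80.2 CPM in gain8, against 45.1, 44.8 and 39.9 CPM in control8. For this ligand too the groups were separate, with a log2 fold change of 0.86 ± 0.62 (adjusted p = 0.338). Peg3 measured 282, 214 and 250.3 CPM in gain8, against 434, 385 and 344 CPM in control8. This transcript went the other way, with a log2 fold change of -0.64 ± 0.83 (adjusted p = 0.610). Mest measured 676, 518 and 719.7 CPM in gain8, against 608, 407 and 172 CPM in control8. The lowest HFD library was below the highest ND library, and the log2 fold change was 0.69 ± 0.88 (adjusted p = 0.607). Npr3, the clearance receptor, measured 1346, 1226 and 1376 CPM in gain8, against 1394, 1107 and 1257 CPM in control8, a log2 fold change of 0.07 ± 0.51 (adjusted p = 0.938).

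In this comparison 0 of the 5 genes were called at an adjusted p under 0.05, against 21.5% of all genes tested. The groups did not overlap for 3 of the 5 genes, against 49.7% of all genes tested. The model takes its spread from all 9 groups, and a fit of gain8 and control8 alone, with an SE of 0.15 for Sfrp5, 0.09 for Bmp3 and 0.14 for Peg3, called these 3 genes (adjusted p = 0.000489, 0.000874 and 0.0111) and 36.0% of all genes tested in it. Over all 13 comparisons edgeR called 1 of 65 tests on these genes. In the 12 comparisons with no call, 7 of 60 tests had an unadjusted p under 0.05, against 23.6% of the tests on all genes. DESeq2 called 4 of the 60, against 12.8% over all genes, and limma on log2(FPKM + 1) called 1, against 9.27%. These 12 comparisons were selected for having no call among the 5 genes. That choice lowers the shares of the 5 but not those of all genes, so the shares cannot be ranked against each other. Per length of transcript, Sfrp5 averaged 256 ± 9.89 FPKM in gain8 and 83.4 ± 18.3 FPKM in control8, and Mest 165 ± 23.6 and 108 ± 60.0 FPKM in the same groups (SD, n = 3 each). Npr3 averaged 193 ± 6.85 FPKM in gain8, Bmp3 25.6 ± 0.886 FPKM and Peg3 18.99 ± 2.19 FPKM, so that Sfrp5 was the most abundant of the 5 per length in these mice.

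Markers of other cells differed between the same libraries. The 12 adipocyte markers summed to 27220.5 to 29948 CPM in gain8, against 35623 to 46460.1 CPM in control8. They did not move as one: 9 were lower in every gain8 library than in any control8 library, 2 were higher (Cidec, at 3610 to 4579 against 3000.1 to 3286 CPM, and Dgat2, at 1501 to 1918 against 456 to 681 CPM), and 1 overlapped. Cfd, the secreted protease adipsin, was at 310 to 599 CPM in gain8, against 6307 to 11360.4 CPM in control8. The 11 macrophage markers in the table summed to 5140.3 to 5856 CPM in gain8, against 1129 to 1512 CPM in control8, with none of them at 0 in either group. Set against the mean of the log2 CPM of the adipocyte markers, which carries the same unequal changes, the log2 ratio of Sfrp5 was -1.29 in gain8 and -3.71 in control8, that of Mest -0.89 and -2.45, and that of Peg3 -2.24 and -2.31. The part of cell composition in these levels was not tested, and in whole tissue fewer cells of a type and less RNA per cell cannot be told apart.

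**Figure D1:**
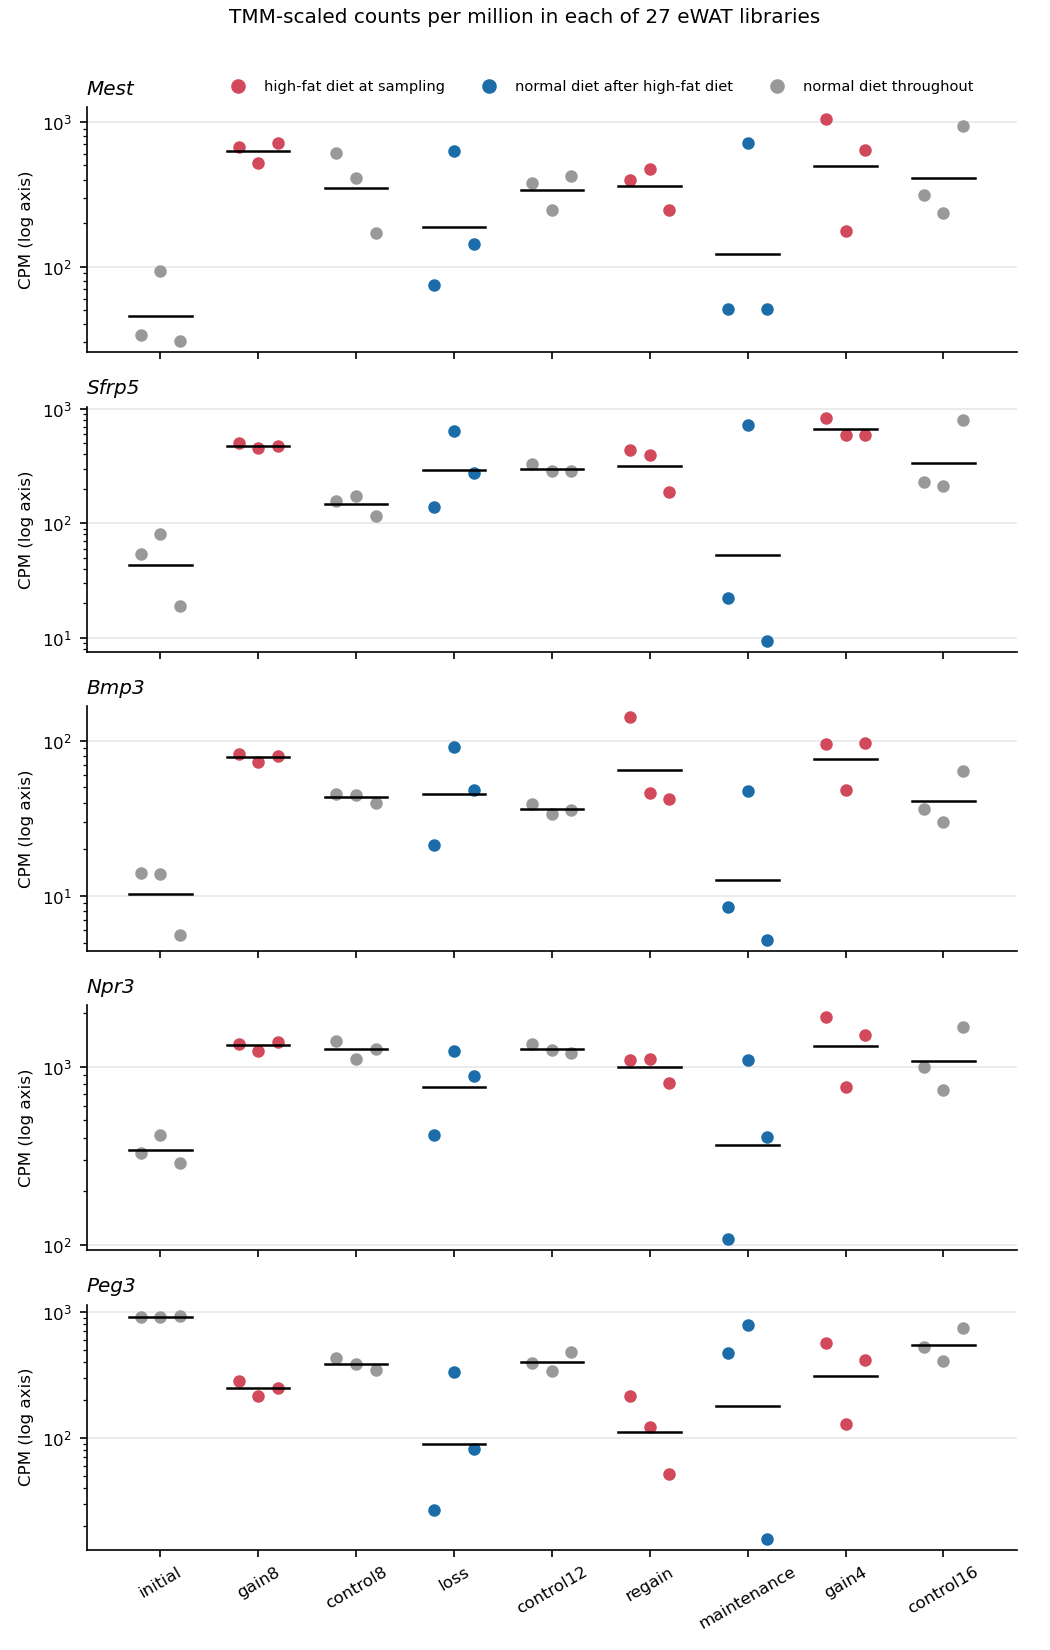
Level of each gene in every library, in TMM-scaled CPM on a log axis, with 1 point per library in the order of its replicate number and a black line at the mean of the log values of each group of 3. The 3 gain8 libraries sit close together for Sfrp5 (455 to 506 CPM), whereas the 3 maintenance libraries run from 9.41 to 719 CPM.

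The switch back to ND addressed whether these levels returned. After 4 weeks on ND the loss libraries no longer lay together in CPM. Mest measured 74.7, 625 and 143 CPM in loss, against 379, 248 and 420.0 CPM in control12. Library 2 was above every control and the other loss libraries were below every control, and the log2 fold change was -0.31 ± 0.88 (adjusted p = 0.834). Sfrp5 measured 139.8, 644 and 274 CPM in loss, against 329, 284 and 287 CPM in control12. Again library 2 alone was above the controls, with a log2 fold change of 0.23 ± 0.93 (adjusted p = 0.885). Bmp3 measured 21.3, 90.8 and 48.5 CPM in loss, against 39.3, 33.7 and 35.6 CPM in control12. It had the same order of libraries, and a log2 fold change of 0.56 ± 0.62 (adjusted p = 0.547). Npr3 measured 414, 1219 and 884 CPM in loss, against 1339, 1234 and 1193 CPM in control12. Library 2 lay among the controls and the others below them, with a log2 fold change of -0.58 ± 0.51 (adjusted p = 0.441). Peg3 measured 26.8, 333 and 82.2 CPM in loss, against 392, 341 and 483 CPM in control12. It was the gene whose groups did not overlap, with a log2 fold change of -1.46 ± 0.84 (adjusted p = 0.225).

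Of the 5 genes 0 were called in loss vs control12, against 20% of all genes tested, and groups did not overlap for 1 of the 5, against 37.1% of all genes tested. Without loss library 2, Peg3 was called (log2 fold change -2.89, adjusted p = 0.0306), as were 23.9% of all genes, and Sfrp5 and Bmp3 changed sign, to -0.54 and -0.05. Mest changed sign to 0.14 without loss library 1 and to 0.01 without loss library 3. Within the high-Lars2 libraries Peg3 was 2.93 lower on the log2 scale in loss (adjusted p = 0.00688), and within the low-Lars2 libraries, with 1 library a group whose spread is assumed from the other groups, its log2 fold change was -0.21 (adjusted p = 0.932). The adipocyte markers summed to 9855 to 36022 CPM in loss, against 34247 to 57781 CPM in control12, and the macrophage markers to 5762 to 19356 CPM in loss, against 1092 to 1462 CPM in control12. Of the 12 adipocyte markers, 3 were lower and 0 higher in every loss library than in any control12 library, and 9 overlapped. Dgat2, which overlapped, reached higher in loss, at 830 to 1516 CPM, against 575 to 840 CPM in control12. Relative to the mean log2 CPM of the adipocyte markers, the log2 ratio of Sfrp5 was -1.72 ± 0.43 in loss and -2.82 ± 0.30 in control12 (SD). That of Bmp3 was -4.39 ± 0.28 and -5.87 ± 0.34, and that of Npr3 -0.33 ± 0.10 and -0.76 ± 0.29. Mest gave -2.35 ± 0.93 and -2.64 ± 0.66, and Peg3 -3.41 ± 1.05 and -2.40 ± 0.58. Adipocyte markers were lowest in loss library 1, which also held the lowest value of every one of the 5 genes in that group, and their part in these levels was not tested.

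Set directly against the obese state, all 5 genes had a negative log2 fold change in loss vs gain8, and 0 were called, against 0.0786% of all genes tested. The fold changes were -1.18 ± 0.89 for Mest (adjusted p = 0.612), -0.44 ± 0.93 for Sfrp5 (0.894), -0.55 ± 0.62 for Bmp3 (0.766), -0.65 ± 0.51 for Npr3 (0.632) and -0.75 ± 0.83 for Peg3 (0.760). Only Npr3 had groups that did not overlap, which held for 16.6% of all genes tested, and 4 weeks of age are confounded with the diet in this comparison. The difference of the 2 diet effects, loss over control12 less gain8 over control8, removes that age step. It was -1.001 ± 1.24 for Mest (adjusted p = 0.958), -1.45 ± 1.32 for Sfrp5 (0.923) and -0.29 ± 0.87 for Bmp3 (0.986), with 0 of the 5 genes and 0% of all genes called. Among all 17821 genes, DESeq2 called 32 and limma on log2(FPKM + 1) 3 for that difference, and 1231 genes had an unadjusted p under 0.05 in edgeR.

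**Figure D2:**
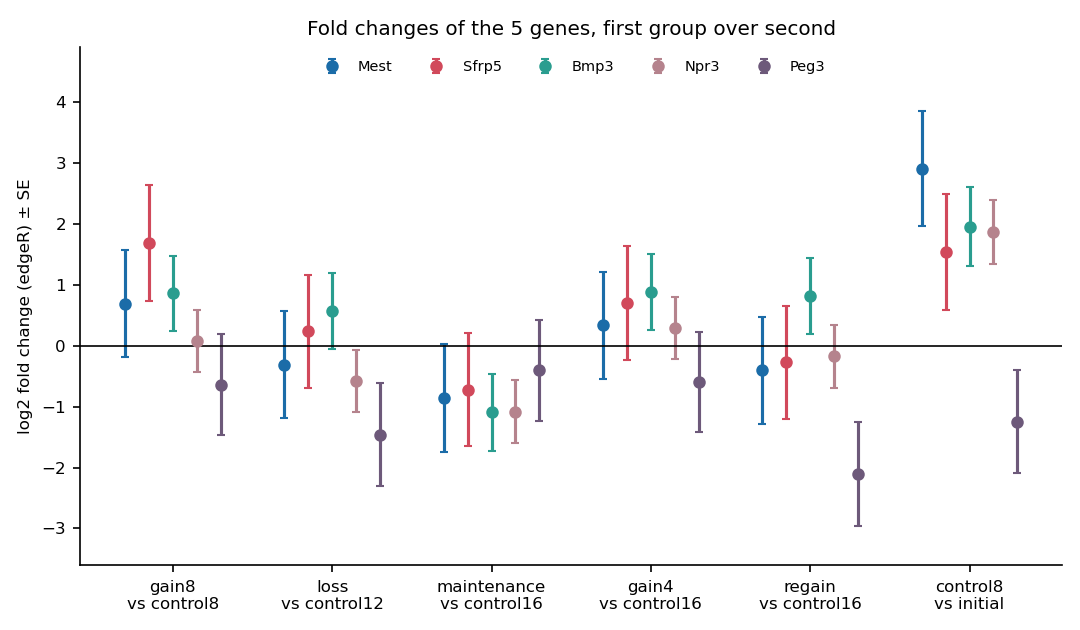
Log2 fold change of each gene with its SE from edgeR's model of all 27 libraries, in the 5 age-matched comparisons and from 5 to 13 weeks of age on ND, the group named above over the group named below. Sfrp5 is at 1.69 after 8 weeks of HFD and at 0.23 and -0.72 after 4 and 8 weeks back on ND, with SEs of 0.93 to 0.95.

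After 8 weeks back on ND, the maintenance libraries were split for the genes other than Peg3: library 2 was above every initial library, and the other libraries were below every control16 library. Mest measured 50.7, 715 and 51.4 CPM in maintenance, against 314, 236 and 937 CPM in control16. Sfrp5 measured 22.2, 719 and 9.41 CPM in maintenance, against 229.9, 211 and 797 CPM in control16. For Sfrp5 the highest maintenance library held 76.5 times the lowest, the widest range of any group and gene here, and control16 library 3 also stood well above its fellows. Bmp3 measured 8.45, 47.3 and 5.21 CPM in maintenance, against 36.4, 29.96 and 64.2 CPM in control16. Npr3 measured 108, 1089.7 and 402 CPM in maintenance, against 989, 738 and 1672 CPM in control16. In both genes the same library was the high one. Peg3 measured 468, 786 and 15.9 CPM in maintenance, against 528, 409 and 743 CPM in control16. Here library 3 alone was low, the library with the high liver markers.

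With all libraries, 0 of the 5 genes were called in maintenance vs control16, where 0% of all genes tested were called. Among all genes, edgeR gave 3633 at an unadjusted p under 0.05, DESeq2 called 824 and limma on log2(FPKM + 1) 1. The log2 fold changes were -0.86 ± 0.88 for Mest (adjusted p = 0.613), -0.72 ± 0.93 for Sfrp5 (0.700), -1.09 ± 0.63 for Bmp3 (0.333), -1.09 ± 0.52 for Npr3 (0.239) and -0.40 ± 0.83 for Peg3 (0.817), and for each of the 5 genes the groups overlapped, as for all but 15.7% of genes tested. Maintenance library 2 decided this result. Without it 4 genes were called: Mest at -3.27 (adjusted p = 0.0213), Sfrp5 at -4.69 (0.00191), Bmp3 at -2.66 (0.00710) and Npr3 at -2.14 (0.00852), while Peg3 stood at -1.20. In that fit 12.5% of all genes tested were called. With the other maintenance or control16 libraries left out, none of the 5 was called, while Sfrp5 changed sign to 0.17 without control16 library 3 and Peg3 to 0.20 without maintenance library 3. Within the high-Lars2 libraries, where maintenance is library 3 alone, Sfrp5 stood at -4.57 (adjusted p = 0.00885), Bmp3 at -2.69 (0.0169) and Peg3 at -4.90 (0.00334), with 28.3% of all genes called, and none of the 5 was called within the low-Lars2 libraries. The adipocyte markers summed to 40653 to 65535 CPM in maintenance, against 38921 to 50871 CPM in control16. Single markers differed from that sum: Adipoq was at 5812, 4387 and 1631 CPM in maintenance, against 3510.2 to 4279 CPM in control16. The lowest maintenance values of Plin4 (2393 CPM), Pnpla2 (1422 CPM) and Dgat2 (232 CPM) were also below every control16 library. So were those of Plin1 (849 CPM), Cidec (3737 CPM), Fabp4 (10471 CPM) and Cfd (3862 CPM). The highest maintenance values of Retn (2617 CPM), Cfd (21084 CPM) and Dgat2 (6347 CPM) were above every control16 library. So were those of Adipoq, Plin1 (1854 CPM), Lipe (2096 CPM), Fabp4 (21877 CPM), Pparg (273 CPM) and Cebpa. Of the 12 adipocyte markers, 0 were lower and 1 higher in every maintenance library than in any control16 library, and 11 overlapped. Cebpa was the higher, at 594 to 1122 CPM in maintenance, against 433 to 567 CPM in control16. The part of these markers in the result was not tested. Leptin (Lep), the hormone that follows fat mass, measured 74.1, 1742 and 743 CPM in maintenance, against 985, 754 and 2624 CPM in control16, and library 2 was again the highest of its group. The change of the diet effect by that time, maintenance over control16 less gain8 over control8, was -1.55 ± 1.25 for Mest (adjusted p = 0.459), -2.41 ± 1.33 for Sfrp5 (0.255) and -1.95 ± 0.88 for Bmp3 (0.159), with 0 of the 5 called, against 11.1% of all genes tested. Without maintenance library 2 these 3 values were -3.96, -6.39 and -3.52 (adjusted p = 0.0209, 0.000498 and 0.00450), with 14.5% of all genes called.

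**Figure D3:**
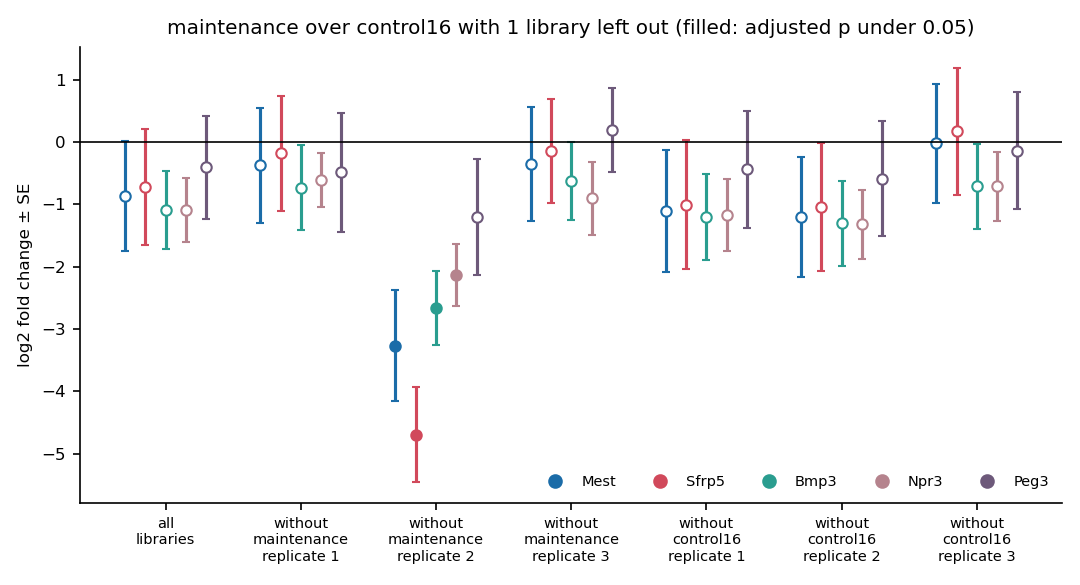
Log2 fold change of maintenance over control16 with its SE for each gene, with all libraries and with each library left out in turn. Filled points have an adjusted p under 0.05, and they occur for Mest, Sfrp5, Bmp3 and Npr3 when maintenance library 2 is left out, at -3.27, -4.69, -2.66 and -2.14.

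In mice of the same age, HFD for the last 4 weeks gave 2 further settings, a second exposure (regain) and a first one (gain4). Sfrp5 measured 438, 398 and 188 CPM in regain and 836, 589 and 593 CPM in gain4, against 229.9, 211 and 797 CPM in control16. The gain4 libraries all exceeded those of regain, and both overlapped the controls. The log2 fold change was -0.27 ± 0.93 for regain (adjusted p = 0.860) and 0.70 ± 0.93 for gain4 (0.676) against control16. Mest measured 400.0, 473 and 248 CPM in regain and 1054, 177 and 641 CPM in gain4, with log2 fold changes of -0.41 ± 0.88 (adjusted p = 0.774) and 0.33 ± 0.88 (0.851) against control16. In both diets its libraries lay within the range of the controls, 236 to 937 CPM, apart from gain4 libraries 1 and 2. Bmp3 measured 142, 45.8 and 41.9 CPM in regain and 95.0, 47.9 and 96.5 CPM in gain4, with log2 fold changes of 0.81 ± 0.62 (adjusted p = 0.365) and 0.87 ± 0.62 (0.402). Within regain, library 1 alone was high for this gene. Npr3 measured 1090.0, 1104 and 810.2 CPM in regain and 1908, 765 and 1497 CPM in gain4, with log2 fold changes of -0.18 ± 0.51 (adjusted p = 0.832) and 0.29 ± 0.51 (0.759). Peg3 measured 216, 122 and 52.1 CPM in regain and 567, 129 and 415 CPM in gain4, against 528, 409 and 743 CPM in control16. All regain libraries were below all controls, a log2 fold change of -2.11 ± 0.86 (adjusted p = 0.0838), and that for gain4 was -0.60 ± 0.83 (0.690). Without control16 library 3 the fold changes of regain changed sign for Mest (0.41), Sfrp5 (0.60) and Npr3 (0.19), and without gain4 library 1 that of gain4 changed sign for Mest (-0.25).

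In regain vs control16, 0 of the 5 genes were called, against 21.7% of all genes tested, and in gain4 vs control16 0 of 5, against 5.82%. Groups did not overlap for 1 of 5 genes in regain vs control16 and 0 of 5 in gain4 vs control16, against 42.8% and 25.4% of all genes tested. The call of Peg3 in regain vs control16 turned on the method: its adjusted p was 0.0443 with DESeq2, 0.0265 in a fit of the compared groups alone, 0.0306 with the Lars2 kind of library as a term, 0.0134 within the high-Lars2 libraries, and 0.00429 without 3 doubtful libraries (loss 1, control12 3 and maintenance 3). Those fits called 25.9% to 29.8% of all genes. Regain and gain4 were not told apart by any gene (0 of 5 called, smallest adjusted p 0.272, against 5.49% of all genes tested), and their groups did not overlap for Sfrp5, against 25% of all genes tested.

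Regain and maintenance share their history until the last 4 weeks, and this was the comparison with a call. Bmp3 rose to 76.5 ± 56.6 CPM in regain, against 20.3 ± 23.4 CPM in maintenance (SD, n = 3 each), a log2 fold change of 1.91 ± 0.64 (adjusted p = 0.0314), 3.75-fold. The libraries nevertheless overlapped: maintenance library 2, at 47.3 CPM, was above regain libraries 2 and 3. With 1 of 5 genes called, against 26.9% of all genes tested, this share was below the background. The call was lost without regain library 1 (log2 fold change 1.12, adjusted p = 0.206), without maintenance library 1 (1.53, 0.133) and without maintenance library 3 (1.44, 0.101), in the fit of these 2 groups alone (1.88, 0.230), within the low-Lars2 libraries (2.34, 0.0722), and without the 3 doubtful libraries named above (1.43, 0.0799). Mest and Sfrp5 stood at 0.45 ± 0.88 and 0.45 ± 0.93 (adjusted p = 0.741 and 0.761), Npr3 at 0.91 ± 0.51 (0.197) and Peg3 at -1.70 ± 0.85 (0.142), and groups overlapped for all 5, against 32.5% of all genes tested that did not overlap. Without maintenance library 2, Mest was called at 2.87, Sfrp5 at 4.43, Bmp3 at 3.47 and Npr3 at 1.97, with 26.3% of all genes called. Maintenance was then libraries 1 and 3, the latter with the high liver markers. Mest and Sfrp5 changed sign without maintenance library 1, to -0.05 and -0.11, and without maintenance library 3, to -0.05 and -0.13. Without maintenance library 3, Peg3 was called at -2.29 (adjusted p = 0.0165), as it was without the 3 doubtful libraries (-2.31, 0.00401) and within the low-Lars2 libraries (-1.55, 0.0388). Within the high-Lars2 libraries, where that library stands alone for maintenance, Peg3 took the opposite sign, 2.45 (adjusted p = 0.0357). Between the later and the earlier time after the switch, maintenance vs loss, 0 of 5 genes were called (smallest adjusted p 0.110), against 24.5% of all genes tested, with 4 called without maintenance library 2 (25.1% of all genes) and 1 each without maintenance library 3 (24.1%) or loss library 2 (28.3%). Groups overlapped for all 5 genes there, against 28.6% of all genes tested that did not, and the log2 fold changes were -0.04 ± 0.88 for Mest, -0.49 ± 0.93 for Sfrp5, -1.39 ± 0.63 for Bmp3, -0.65 ± 0.51 for Npr3 and 1.52 ± 0.84 for Peg3. Between regain and loss 0 of 5 were called (smallest adjusted p 0.951), against 0% of all genes, with 1407 genes at an unadjusted p under 0.05 in edgeR, 174 called by DESeq2 and 2 by limma on log2(FPKM + 1). Renewed HFD over loss gave 0.41 ± 0.88 for Mest, -0.05 ± 0.93 for Sfrp5, 0.51 ± 0.62 for Bmp3, 0.26 ± 0.51 for Npr3 and -0.18 ± 0.83 for Peg3, and all 5 overlapped, against 11% of all genes tested that did not.

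From 5 to 13 weeks of age on ND, when the pad grows, 4 genes stood higher in every library and Peg3 lower in every library. Mest measured 608, 407 and 172 CPM in control8, against 33.8, 94.0 and 30.5 CPM in the initial group, a log2 fold change of 2.91 ± 0.94 (adjusted p = 0.139). Npr3 measured 1394, 1107 and 1257 CPM in control8, against 326, 415 and 288 CPM in the initial group, a log2 fold change of 1.87 ± 0.53 (adjusted p = 0.0997). These were the widest and the best supported of the 5 differences. Bmp3 measured 45.1, 44.8 and 39.9 CPM in control8, against 14.0, 13.9 and 5.58 CPM in the initial group, a log2 fold change of 1.95 ± 0.65 (adjusted p = 0.145). Sfrp5 measured 156, 172 and 116 CPM in control8, against 53.3, 80.6 and 19.02 CPM in the initial group, a log2 fold change of 1.54 ± 0.95 (adjusted p = 0.455). Peg3 measured 434, 385 and 344 CPM in control8, against 917, 909.9 and 932 CPM in the initial group, a log2 fold change of -1.25 ± 0.84 (adjusted p = 0.502). Its initial libraries agreed within 1.02-fold. Of the 5 genes 0 were called by edgeR, against 0.724% of all genes tested, 3 had an unadjusted p under 0.05, against 15.5% of all genes, and groups did not overlap for all 5, against 38.5% of all genes tested. DESeq2 called Mest, Bmp3 and Npr3 (adjusted p = 0.0309, 0.0352 and 0.0102), against 3.78% of all genes, and a fit of the 2 groups alone called these and Peg3, against 12.9% of all genes. All 3 initial libraries were of the high-Lars2 kind, against 1 of the 3 control8 libraries, so this step was not recomputed within the low-Lars2 kind.

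Ordered by mean log2 CPM, Mest was lowest in initial, then maintenance, loss, control12, control8, regain, control16, gain4 and gain8. No neighbouring pair of groups in that order differed by more than the larger of their SDs. Sfrp5 ran from initial through maintenance, control8, loss, control12, regain, control16 and gain8 to gain4, and only gain8 and gain4 differed by more than that SD. Bmp3 ran from initial through maintenance, control12, control16, control8, loss, regain and gain4 to gain8, and Npr3 from initial through maintenance, loss, regain, control16, control8, control12 and gain4 to gain8, with no neighbouring pair apart. So on the log scale the initial and maintenance groups were at the low end for these 4 genes. By mean CPM, maintenance still came next above initial for Mest (273 CPM, then 281 CPM in loss) and Bmp3 (20.3 CPM, then 36.2 CPM in control12). The same held for Npr3 (533 CPM, then 839 CPM in loss). For Sfrp5 the place of maintenance depended on that scale, since its library 2 was high. By mean CPM, Sfrp5 was at 250 CPM in maintenance and 148 CPM in control8. Peg3 had another order: loss, regain, maintenance, gain8, gain4, control8, control12, control16 and initial. Its 2 uppermost steps, control12 to control16 and control16 to initial, exceeded the larger SD of the pair.

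The spread between libraries of a group was wide for these genes and differed between groups. Pooled over the 9 groups, the SD of log2 CPM was 1.17 for Mest, 1.30 for Sfrp5, 0.82 for Bmp3, 0.70 for Npr3 and 1.30 for Peg3, against 0.363 for the median of the 17821 genes. This placed Mest above 95.4% of all genes, Sfrp5 above 96.7%, Peg3 above 96.8%, Bmp3 above 88.6% and Npr3 above 83.3%. Without the 3 doubtful libraries Peg3 stood above 87.7%, with a pooled SD of 0.71. In gain8 the SD of Sfrp5 was 0.08, below that of most genes in the same libraries (median 0.206), and those of Bmp3 and Npr3 were 0.09 each. In maintenance the SD was 3.31 for Sfrp5, 3.05 for Peg3, 2.20 for Mest, 1.67 for Npr3 and 1.66 for Bmp3, with a median of 0.437 over all genes. Low spread was not particular to HFD: in control12 the SD was 0.12 for Sfrp5, 0.11 for Bmp3 and 0.09 for Npr3. In maintenance the SD of Sfrp5 was above that of 99.0% of all genes, that of Bmp3 above 95.7% and that of Npr3 above 95.8%. Of the 5 genes, Bmp3 and Npr3 were nevertheless the least scattered there. Group means accounted for 57.5% of the variance of log2 CPM for Mest, 59.5% for Sfrp5, 68.4% for Bmp3, 62.0% for Npr3 and 47.6% for Peg3, with a median of 54.2% over all genes. No test of unequal spread was made with 3 libraries a group.

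**Figure D4:**
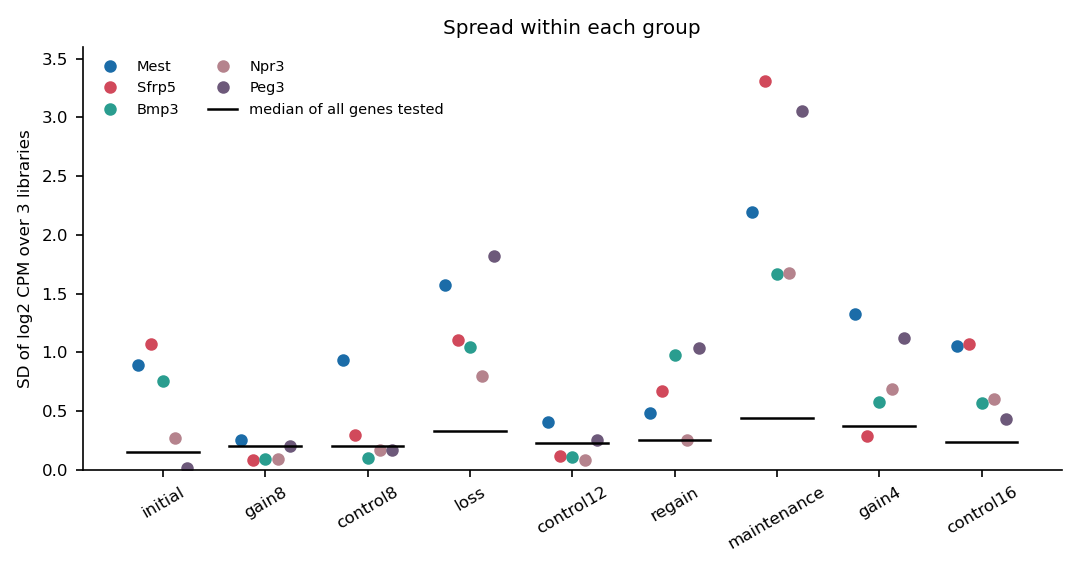
SD of log2 CPM over the 3 libraries of each group, by gene, with black lines at the median SD of all genes tested in that group. In gain8 Sfrp5, Bmp3 and Npr3 lie under the line of 0.206, and in maintenance all 5 genes lie at 1.66 to 3.31, above the line of 0.437.

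Libraries that were high for 1 of the genes tended to be high for the others. After subtraction of group means, Mest and Sfrp5 correlated over the 27 libraries with Pearson's r = 0.848 (permutation p = 7e-05, libraries permuted within groups, two-sided; 0.00035 after Benjamini-Hochberg adjustment over the 10 pairs computed) and Spearman's rho = 0.853 (permutation p = 6e-05). The sign was positive in 9 of 9 groups, and r was 0.762 without the 2 libraries farthest from the median of Mest. Sfrp5 and Bmp3 gave the highest value, r = 0.895 (permutation p = 1e-05, the smallest that 100000 permutations can give; adjusted 0.00010) and rho = 0.854 (permutation p = 2e-05), with r = 0.829 without the 2 farthest libraries. Mest correlated with Bmp3 at r = 0.828 (permutation p = 0.00057, adjusted 0.0016; rho = 0.766, permutation p = 0.00104; r = 0.714 without the 2 farthest) and with Npr3 at r = 0.827 (permutation p = 0.00064, adjusted 0.0016; rho = 0.797, permutation p = 0.00041; r = 0.732 without the 2 farthest). Bmp3 also passed with Npr3 (r = 0.723, permutation p = 0.0224, adjusted 0.0373; rho = 0.736, permutation p = 0.00212; r = 0.712 without the 2 farthest). With Peg3, Bmp3 gave r = 0.775 (permutation p = 0.0176, adjusted 0.0352; rho = 0.663, permutation p = 0.00948; r = 0.663 without the 2 farthest). The other 4 pairs missed the threshold for r. Mest and Peg3, the 2 imprinted genes, gave r = 0.689 (permutation p = 0.0451, adjusted 0.0644; rho = 0.695, permutation p = 0.00171; r = 0.537 without the 2 farthest). Sfrp5 gave r = 0.723 with Npr3 (permutation p = 0.0762, adjusted 0.0952; rho = 0.716, permutation p = 0.00400; r = 0.789 without the 2 farthest) and r = 0.713 with Peg3 (permutation p = 0.109, adjusted 0.121; rho = 0.606, permutation p = 0.0122; r = 0.433 without the 2 farthest). Npr3 and Peg3 gave the lowest value, r = 0.3504 (permutation p = 0.587; rho = 0.515, permutation p = 0.0519; r = 0.544 without the 2 farthest). Without the 3 doubtful libraries all 10 pairs had an adjusted p under 0.05. No share of passing pairs was computed for other genes, so these counts do not show that co-variation is particular to the chosen genes. Within groups, Mest correlated more closely with Plekha7 (r = 0.976) and Synpo2 (r = 0.954), which were not among the chosen genes, than with Sfrp5. The same library was the lowest of its group for both Mest and Sfrp5 in 8 of 9 groups, and the highest in 5 of 9. All values of a library share its depth, scaling and tissue make-up, whose part was not tested. Within Lars2 kinds no correlation was computed, since at most 2 libraries of a kind remain in most groups.

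**Figure D5:**
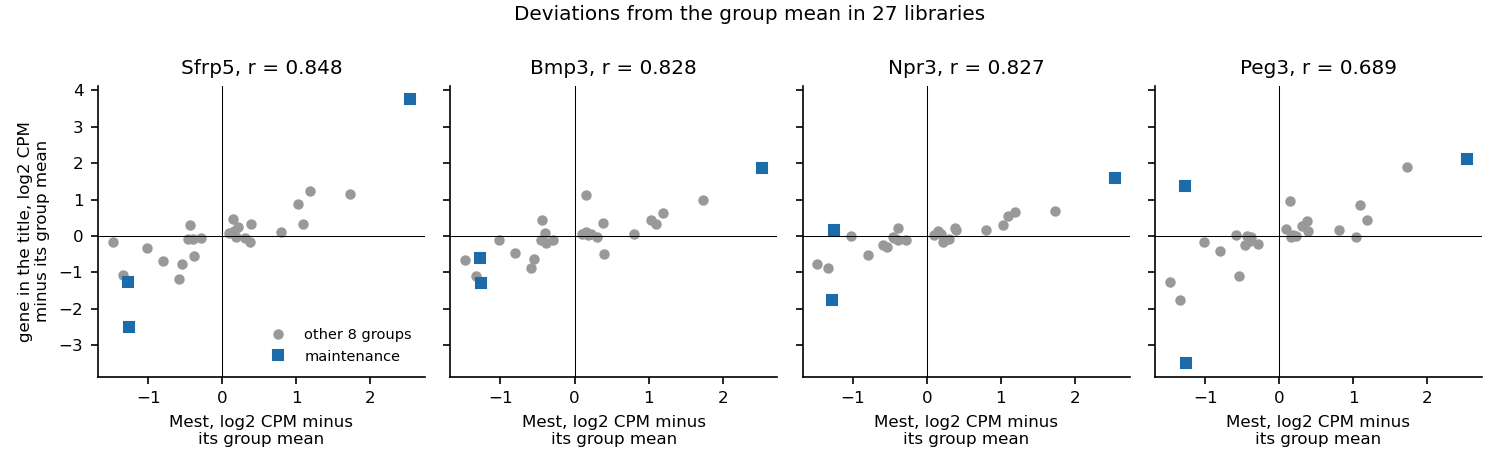
Deviation of each library from its group mean in log2 CPM, for Mest on the horizontal axis and the gene named above each panel on the vertical axis, with the 3 maintenance libraries as blue squares and the other 24 libraries in grey. The r over the 27 libraries is 0.848 for Sfrp5, 0.828 for Bmp3, 0.827 for Npr3 and 0.689 for Peg3. Maintenance library 2 lies farthest to the right in each panel, while gain4 library 2 and loss library 1 lie farther left than any maintenance library.

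Among the 10891 genes with a mean of at least 5 CPM, named genes whose log2 CPM was most like that of Mest over the 27 libraries were Synpo2, an actin-associated protein gene (r = 0.940), Prelp, a matrix proteoglycan gene (0.933), and Plekha7, a cell junction gene (0.926). Prelp was also the gene most like Sfrp5 (r = 0.934), followed by Bmp3 (0.924) and Anxa6, an annexin gene (0.896). Bmp3 was most like Sfrp5, then Prelp (0.884) and Mest (0.876). Npr3 was most like Fads3, a fatty acid desaturase family gene (0.905), Prelp (0.904) and Mest (0.890). Peg3 kept other company, with Fbxo21 (0.927), Calcoco1 (0.918) and Foxo4 (0.915), and its r with Mest over all libraries was 0.194. These values are descriptions over libraries that share group differences. Within groups, Lep correlated with Npr3 at r = 0.949, with Mest at 0.712, with Bmp3 at 0.628 and with Sfrp5 at 0.620, but with Peg3 at 0.144. Peg3 instead went with adiponectin (Adipoq, r = 0.654) and against Lars2 (-0.634), for which Mest stood at -0.49 and Sfrp5 at -0.43. Sums of other cell markers gave, within groups, an r of -0.31 (Npr3) to 0.31 (Peg3) for macrophages, 0.14 (Npr3) to 0.55 (Peg3) for mesothelium, with 0.45 for Bmp3, and -0.51 (Peg3) to 0.02 (Npr3) for liver, with -0.44 for Sfrp5. For cycling cells all 5 were negative, -0.42 (Npr3) to -0.30 (Sfrp5). The part of these cells was not tested.

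In each comparison, most of the other genes of the Wnt pathway, in which Sfrp5 acts, were not called. Of 37 tested genes for secreted Wnt inhibitors and Wnt signalling, 2 rose and 8 fell in gain8 vs control8, with a median log2 fold change of -0.60, against -0.02 over all genes tested, of which 12% rose and 9.52% fell. Fzd5, a Wnt receptor, rose to 28.2 ± 1.04 CPM in gain8, against 11.4 ± 0.560 CPM in control8 (log2 fold change 1.31 ± 0.28, adjusted p = 0.00254), and Rspo3, a secreted enhancer of Wnt signalling, fell to 0.338 ± 0.125 CPM in gain8, against 2.37 ± 0.880 CPM in control8 (-2.79 ± 0.46, adjusted p = 0.000361). Wif1, a secreted Wnt inhibitor, was at 1.60 to 3.40 CPM in gain8 and at 0 in 2 of 3 control8 libraries (adjusted p = 0.00162). None of the 37 was called in loss vs gain8 or in gain4 vs control16, against 0.0786% and 5.82% of all genes tested. In regain vs maintenance 3 rose and 5 fell, with a median of -0.11. Over all genes tested that median was -0.07, and 13.9% rose and 13% fell. Those of the 37 with the smallest adjusted p were Fzd5 again (1.68 ± 0.28, adjusted p = 0.000231), Wnt5b, a ligand (-1.61 ± 0.37, 0.00285), and Sfrp4, a sister gene of Sfrp5 (1.76 ± 0.45, 0.00667).

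Among 37 tested genes of the BMP and activin pathway, to which Bmp3 belongs, 1 rose and 7 fell in gain8 vs control8. Their median log2 fold change was -0.35, against -0.02 over all genes tested, of which 12% rose and 9.52% fell. Acvr1c, the activin receptor ALK7 of fat cells, fell to 86.8 ± 16.1 CPM in gain8, against 337 ± 111 CPM in control8 (-1.96 ± 0.32, adjusted p = 0.000336). Gdf10, a ligand closely related to Bmp3, fell to 20.1 ± 11.9 CPM in gain8, against 88.2 ± 12.1 CPM in control8 (-2.13 ± 0.42, adjusted p = 0.00133), and Smad5, a BMP signal transducer, fell by 0.55 on the log2 scale (adjusted p = 0.00264). In regain vs maintenance 2 rose and 7 fell, against 13.9% and 13% of all genes tested. None was called in loss vs gain8, against 0.0786% of all genes tested. Inhbb, an activin subunit gene, rose (1.15 ± 0.23, adjusted p = 0.00112), and Acvr1c (-1.52 ± 0.31, 0.00138) and Chrd, a secreted BMP antagonist (-1.33 ± 0.29, 0.00203), fell.

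In gain8 vs control8, 12% of all genes tested rose and 9.52% fell. Of 11 tested genes of the natriuretic peptide pathway, in which Npr3 acts, 0 rose and 2 fell. Both were near the lower limit of detection: Corin, a peptide-processing protease, at 0.187 ± 0.0233 CPM in gain8, against 1.38 ± 1.28 CPM in control8 (adjusted p = 0.0400), and Prkg2, a cGMP-dependent kinase, at 0.0696 ± 0.0603 CPM in gain8, against 0.849 ± 0.236 CPM in control8 (adjusted p = 0.0421). Npr2, a signalling receptor of the family, fell in regain vs maintenance to 48.2 ± 13.4 CPM, against 90.2 ± 13.0 CPM in maintenance (-0.90 ± 0.26, adjusted p = 0.0145). Of 30 other imprinted genes tested, 0 rose and 7 fell in gain8 vs control8, against 12% and 9.52% of all genes tested. Their median log2 fold change was -0.51, against -0.02 over all genes tested. The transporter gene Slc22a18 (-1.51 ± 0.33, adjusted p = 0.00308), Zrsr1, a splicing factor family gene (-0.95 ± 0.21, 0.00326), and Blcap (-0.88 ± 0.23, 0.00911) had the smallest adjusted p. In regain vs maintenance 1 imprinted gene rose and 7 fell, against 13.9% and 13% of all genes tested. Igf2r, the IGF2 clearance receptor, rose to 233 ± 17.2 CPM in regain, against 95.8 ± 23.7 CPM in maintenance (1.28 ± 0.23, adjusted p = 0.000461).

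Of 27 other genes of fat cell expansion, 3 rose and 2 fell in gain8 vs control8, against 12% and 9.52% of all genes tested. Their median log2 fold change was 0.12, against -0.02 over all genes tested. Plin2, a lipid droplet coat protein gene, rose to 1397 ± 156 CPM in gain8, against 294 ± 24.1 CPM in control8 (2.25 ± 0.30, adjusted p = 0.000114). Egr2, an early adipogenic transcription factor gene, rose to 21.7 ± 1.83 CPM in gain8, against 2.49 ± 0.873 CPM in control8 (3.12 ± 0.43, adjusted p = 0.000134), and Lep to 5400.3 ± 1089 CPM in gain8, against 828 ± 119 CPM in control8 (2.71 ± 0.68, adjusted p = 0.00744). In regain vs maintenance 3 rose and 3 fell, with Egr2 higher (3.52 ± 0.44, adjusted p = 2.34e-05) and Vegfa, the endothelial growth factor gene (-1.81 ± 0.36, 0.00115), and Ffar4, a fatty acid receptor gene (-1.78 ± 0.44, 0.00529), lower. Of all genes tested, 13.9% rose and 13% fell in regain vs maintenance.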

How the data were processed

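Per the labels' protocols, a TruSeq RNA kit was used on total RNA of epididymal fat. The submitters' processing notes name Trimmomatic 0.33 (read trimming), TopHat2 2.0.13 (alignment), HTSeq 0.6.0 (counting) and the build mm10, also called GRCm38. The authors deposited raw counts per gene (43616 rows, of which 156 repeated a name with identical values and were dropped) and FPKM for 22194 rows. The exonic length deposited by the authors beside both tables, in bases, was not used in the tests. The annotation and the strand setting of the counting are not given in the sources used here.

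All 27 libraries entered 1 model with a mean per group in edgeR 4.0.16 (quasi-likelihood test, R 4.3.3), scaled by TMM, over 17821 genes kept by filterByExpr (minimum count 10, minimum total 15). Benjamini-Hochberg adjustment was made within each of 11 comparisons and 2 differences of differences, and genes were called at an adjusted p under 0.05. The SE is the log2 fold change over the root of its F statistic. CPM are TMM-scaled, and a prior count of 2 was added for spread and correlations on the log2 scale. The members and lists were chosen with earlier results of these data known. Of each list, the up to 3 called genes with the smallest adjusted p in gain8 vs control8, loss vs gain8 and regain vs maintenance are named, and for likeness the 3 genes with the highest r among those with a mean of at least 5 CPM. Alternatives were no count filter, RLE scaling, DESeq2 1.42.0, limma 3.58.1 on log2(FPKM + 1) and log2(FPKM + 0.1), the compared groups alone, a replicate block, a division of libraries at 1000 CPM of Lars2, 3 libraries left out, and each library left out in turn. The code was tested on simulated data.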

Additional observations from a re-analysis of the deposited data

How the results depend on the processing

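Of 547 fold changes of the 5 genes under alternatives other than leaving 1 library out, 488 kept their direction and side of the threshold, 32 passed it newly, 3 no longer passed it and 24 took the opposite sign, and of 312 with 1 library left out these numbers were 279, 12, 3 and 18. Where no value of this section shows a cause, the cause was not tested. RLE scaling, no count filter and the replicate block changed no count of called genes among the 5. The replicate numbers did not pair the libraries (r of like-numbered libraries -0.181 to 0.378, with 0 of 11 comparisons where all were above 0.1), and with the replicate block 0 of 5 genes were called in gain8 vs control8 and 1 of 5 in regain vs maintenance. Fits within a Lars2 kind often rest on 1 library a group, whose spread is assumed to be that of the other groups, and control8 vs initial has no value within the low kind, because no initial library belongs to it.

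The number of the 5 genes called became 3 in gain8 vs control8 and 4 in control8 vs initial in the fit of the compared groups alone, 1 in regain vs control16 and 0 in regain vs maintenance. With DESeq2 it was 1 in regain vs control16 and 3 in control8 vs initial. With limma on log2(FPKM + 1) it was 2 in regain vs maintenance and 1 in maintenance vs loss, and on log2(FPKM + 0.1) 3 and 1. With the Lars2 kind as a term it was 1 in regain vs control16, 1 in maintenance vs loss and 1 in the difference of differences of maintenance. Within the high-Lars2 libraries it was 1 in loss vs control12, 3 in maintenance vs control16, 1 in regain vs control16, 4 in regain vs maintenance, 2 in maintenance vs loss and 3 in the difference of differences of maintenance. Without loss library 1, control12 library 3 and maintenance library 3 it was 1 in regain vs control16, 1 in regain vs gain4 and 3 in control8 vs initial. In the 21 fits where more of the 5 genes were called than in the model of all libraries, 3.78% to 36.0% of all genes were called. On log2(FPKM + 1) 5 of the genes, rather than 3, were above the 90th percentile of within-group spread, and without those 3 libraries 10 pairs, rather than 6, passed the test of co-variation. On log2(FPKM + 1), an alternative chosen after seeing the data, 7 pairs passed it.

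Signs turned as follows, in log2 fold change. Within the low-Lars2 libraries Npr3 stood at -0.046 in gain8 vs control8, Mest at 0.74 in loss vs control12, and Mest at -0.14 and Sfrp5 at -0.16 in gain4 vs control16. In loss vs gain8 they gave 0.022 for Mest, 0.48 for Sfrp5, 0.25 for Bmp3 and 0.53 for Peg3, and in the difference of differences of loss 0.089 for Mest and 0.40 for Bmp3. Within the high-Lars2 libraries Sfrp5 stood at -0.48 and Bmp3 at -0.0023 in loss vs control12, Mest at -0.57 and Npr3 at -0.11 in gain4 vs control16, Mest at 0.37, Sfrp5 at 0.39 and Npr3 at 0.13 in regain vs control16, and Peg3 at 2.45 in regain vs maintenance. With the Lars2 kind as a term Mest stood at -0.047 in gain4 vs control16. Without the 3 libraries Mest stood at 0.30 in loss vs control12, Peg3 at 0.18 in maintenance vs control16, Mest at -0.058 and Sfrp5 at -0.14 in regain vs maintenance, and Bmp3 at 0.072 in the difference of differences of loss.

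With each library left out in turn, the fold change ran from -0.0085 to 0.16 for Npr3 in gain8 vs control8. In loss vs control12 it ran from -1.68 to 0.14 for Mest, -0.54 to 0.61 for Sfrp5 and -0.052 to 0.94 for Bmp3, with 0 to 1 genes called. In maintenance vs control16 it ran from -4.69 to 0.17 for Sfrp5 and -1.20 to 0.20 for Peg3, with 0 to 4 called. For Mest in gain4 vs control16 it ran from -0.25 to 1.19. In regain vs control16 it ran from -0.73 to 0.41 for Mest, -0.58 to 0.60 for Sfrp5 and -0.40 to 0.19 for Npr3. In regain vs maintenance it ran from -0.052 to 2.87 for Mest and -0.13 to 4.43 for Sfrp5, with 0 to 4 called. Maintenance vs loss gave 0 to 4 called, as did the difference of differences of maintenance, and Bmp3 in that of loss ran from -0.91 to 0.081. At these depths the spread between libraries, not counting error, limits these values.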
